A study of Homo sapiens with 2 samples.

Results

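Aminoacyl-tRNA synthetases are the enzymes that join each amino acid to its transfer RNA before protein synthesis. Their mRNAs were compared between MKN45P, a highly metastatic human gastric cancer cell line, and MKN45, the parental gastric cancer line. The genes were chosen by name: 36 synthetase symbols, 20 of cytosolic and 16 of mitochondrial enzymes. Of these, 35 were found, 19 cytosolic and 16 mitochondrial, among 18923 gene symbols in all; DARS was not analysed here. They were read by 813 probesets, the small groups of probes that an exon array places along a gene.

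Total RNA from cell lysate was hybridised to 1 array per line. Both lines were cultured in the same kind of serum-supplemented medium, neither carries a labelled treatment or genetic change, and how MKN45P was derived is not given in the sources used here. Pearson's r between the arrays was 0.953 over 877986 probesets, which are not replicates. The epithelial adhesion gene CDH1 had levels of 10.74 in MKN45P and 10.26 in MKN45 (log2), and the leukocyte marker PTPRC lay at 1.65 in MKN45P and 1.66 in MKN45, near the low end of the scale. Of 6 measured epithelial marker genes 3 were positive, CLDN7 at 1.14 and CDH17 at -2.84 being the furthest out. Of 4 measured mesothelial marker genes 2 were positive. Among them UPK3B was at -1.06, and CALB2 had levels of 9.49 in MKN45P and 8.70 in MKN45.

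Each line has 1 array, so no replicate error and no test between the lines can be had. Every difference is between these arrays, their number limits the precision, and the spread given is that between the probesets of a gene.

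Cells keep separate sets of synthetases for the cytosol and for mitochondria, nearly all encoded by nuclear genes of their own. In the cytosol of animal cells, several of the enzymes are held in a multi-synthetase complex around the scaffold proteins AIMP1, AIMP2 and EEF1E1. Shortage of amino acids and stress of the endoplasmic reticulum act through the transcription factor ATF4, which raises the mRNA of many cytosolic synthetases, and interferons raise that of the tryptophan enzyme WARS.

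As a group the synthetase mRNAs lay close to the middle of all genes, with WARS far above and the glutamine enzyme QARS below. For each probeset MKN45 was subtracted from MKN45P on the log2 scale, and the median of these values is the gene's difference, which need not equal the difference of its median levels. To count as measured, a gene needed 4 probesets or more and a level (median over probesets of the mean of both arrays) of 1.92 or more, which is the middle value of the whole table. All 35 synthetase genes found passed this filter, as did 13130 genes in all. Of 19 cytosolic genes, 13 had a positive difference, against 54.9% of all measured genes, and of 16 mitochondrial genes 8 did. Of the cytosolic genes, 1 was at least 2-fold higher in MKN45P, against 4.58% of all measured genes, and 1 was at least 2-fold lower, against 1.2%. No mitochondrial gene passed 2-fold in either direction. The counts past 2-fold are near the background.

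The median difference was 0.17 over the cytosolic genes (interquartile range over genes -0.01 to 0.39) and -0.03 over the mitochondrial genes (-0.32 to 0.08). Over all measured genes it was 0.03 (-0.13 to 0.30). Over the 8081 genes at or above a stricter level of 2.77, the 75th percentile of all probesets, it was 0.12. Without WARS the cytosolic median was 0.13.

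**Figure D1:**
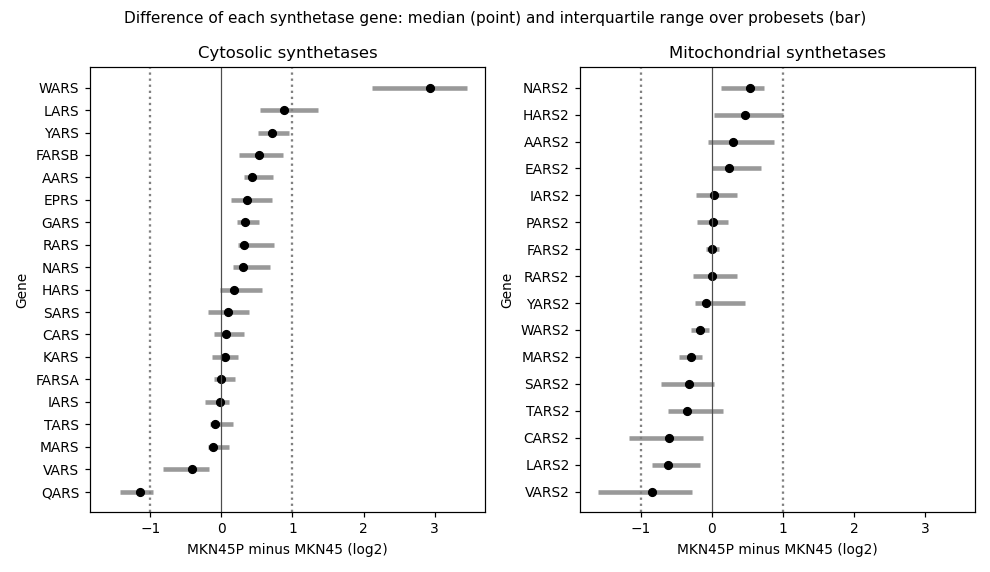
Difference between MKN45P and MKN45 (log2, horizontal) for each measured cytosolic and mitochondrial synthetase gene; points are medians over probesets, bars their interquartile range, and dotted lines mark 2-fold. WARS at 2.93 and QARS at -1.15 lie outside the dotted lines, and the other 33 genes lie between them.

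WARS, the cytosolic tryptophanyl-tRNA synthetase, was the synthetase gene with the largest difference. Its median level was 10.18 in MKN45P and 6.70 in MKN45. The difference was 2.93 (interquartile range over 24 probesets 2.12 to 3.45), or 7.64-fold, the 31st highest among the 13130 measured genes. MKN45P was higher at 22 of the 24 probesets. At the 19 probesets at or above 2.77 in level, WARS was higher in MKN45P by 1.94 to 5.90, and every one of them passed 2-fold. The other 5 stayed near the low end in both lines, from 1.61 to 2.44 in MKN45P and from 1.52 to 2.51 in MKN45, so a difference there could not be seen. That level is averaged over both lines, and 2 of the 19 WARS probesets reached it through MKN45P alone, so for those the direction was fixed by the filter. Among the 19, probeset 3579547 departed furthest from the gene's difference, at 9.71 in MKN45P and 3.82 in MKN45, a difference of 5.90.

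The start region of WARS is shown because it holds motifs of interferon-activated transcription factors. WARS, now named WARS1, lies at chr14:100333790-100376327 of GRCh38.p14, and RefSeq gives it 2 promoters. The sequence is that of the 250 bases before the downstream start, chr14:100375348-100375597 on the minus strand. Capitals mark, in order, a match to the gamma-activated site TTCNNNGAA and a match to the core of the interferon-stimulated response element, GAAA and GAAA with any 2 bases between them.
WARS promoter: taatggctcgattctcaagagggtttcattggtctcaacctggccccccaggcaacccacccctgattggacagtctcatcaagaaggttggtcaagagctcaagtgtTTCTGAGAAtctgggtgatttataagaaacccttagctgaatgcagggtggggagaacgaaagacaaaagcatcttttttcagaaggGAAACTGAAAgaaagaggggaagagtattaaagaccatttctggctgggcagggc

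The matches begin 142 and 55 bases before that start, and they do not overlap. On both strands of windows of 300 bases, from 250 before to 50 after a start, the gamma-activated site occurs in 7.66% and the response element core in 3.57% of all 35116 RefSeq promoters. Counted per gene, with any promoter of a gene enough, the shares are 9.38% and 4.38% of 27305 genes. Of the 36 synthetase genes 30 had a promoter in the table. Among those, the response element core was found in WARS and in EARS2, the mitochondrial glutamyl enzyme, whose difference was 0.24. TTCNNNGAA was found in WARS, CARS, TARS, PARS2 and WARS2, of which only WARS differed by 2-fold. In the list of interferon-induced genes described next, 8 of 10 with a promoter held the core. A match describes these letters and not binding.

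Interferon-induced genes other than WARS were also higher in MKN45P, some by more than WARS. A list of such genes had 11 measured members, of which 8 passed 2-fold upwards (72.7%, against 4.58% of all measured genes) and 0 downwards (against 1.2%). Their median was 2.15. The filter on level favours both the count and the median: IFIT1 and IFIT3 passed it only through MKN45P. The list was also chosen with earlier results of these data known, so the share of 72.7% is a description only. With no level filter the list's median was 1.34, and over probesets with signal, at or above 2.77, it was 4.005. That level is averaged over both lines, so a probeset can reach it through MKN45P alone, its direction then fixed by the filter. Median levels in MKN45 were under 2.77 for OAS2 (2.17), IFIT1 (1.67) and IFIT3 (1.78), so 4.005 is favoured by the filter. OAS2, a sensor enzyme of double-stranded RNA, had levels of 7.49 in MKN45P and 2.17 in MKN45, a difference of 5.02. TAP1, which carries peptides for antigen presentation, had levels of 8.56 in MKN45P and 4.26 in MKN45, a difference of 3.68. The interferon-regulated transcription factor IRF1 had a difference of 2.15, and IFIT3 (6.07), IFIT1 (4.76), MX1 (1.45) and PSMB9 (1.22) also passed 2-fold. The spread over probesets was wide for MX1 (0.08 to 5.76, 6 of 28 lower in MKN45P) and PSMB9 (-0.07 to 5.95, 4 of 11 lower). PSMB8, a subunit of the immunoproteasome, completed the 8, with levels of 7.54 in MKN45P and 3.34 in MKN45. The list was not uniform: ISG15, a ubiquitin-like protein, was at 0.25 over only 4 probesets, although its median levels were 4.804 in MKN45P and 3.177 in MKN45. GBP2, a guanylate-binding protein, was at 0.21, and the MHC class II regulator CIITA at -0.05, GBP2 and CIITA being near the low end of the scale. CXCL10 (-0.09), GBP1 (0.18) and IDO1 (-0.02), whose product degrades tryptophan, did not pass the level filter. They are among the 14 genes of the list found in the annotation but not among the 11 counted. Whether these genes and WARS share a source of their differences was not tested.

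QARS, the cytosolic glutaminyl-tRNA synthetase and a member of the multi-synthetase complex, was the synthetase lowest in MKN45P relative to MKN45. Its median level was 7.12 in MKN45P and 8.51 in MKN45. The difference was -1.15 (-1.43 to -0.96 over 27 probesets), a 2.22-fold lower level, the 113th lowest among all measured genes. All 27 probesets were lower in MKN45P, by between 0.30 and 1.79, and 20 of them passed 2-fold. Most other synthetases had probesets of both signs. QARS, now named QARS1, lies at chr3:49095932-49104757 of GRCh38.p14.

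Mitochondria of animals have no separate glutaminyl enzyme: EARS2 first loads glutamate onto the glutamine tRNA, and an amidotransferase made of QRSL1, GATB and GATC converts it. EARS2 had levels of 3.77 in MKN45P and 3.37 in MKN45 (difference 0.24). The amidotransferase genes differed by -0.06 for QRSL1, 0.13 for PET112L (now GATB) and 0.32 for GATC. None of the genes of that route was near the size of the QARS difference.

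**Figure D2:**
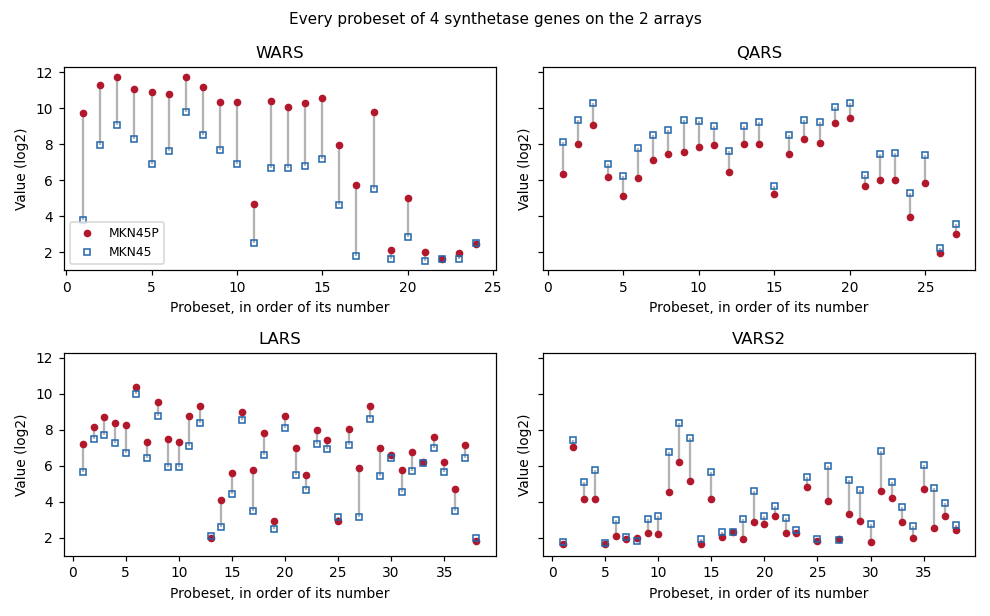
Values of every probeset (log2, vertical) of WARS, QARS, LARS and VARS2 in MKN45P (filled circles) and MKN45 (open squares), ordered by probeset number (horizontal), with a line joining both arrays. MKN45P lies above MKN45 at 22 of 24 WARS probesets and below it at all 27 QARS probesets.

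Within the multi-synthetase complex the enzymes did not share a direction. Of 7 measured complex enzymes, 4 had a positive and 3 a negative difference, with a median of 0.05. LARS, the leucyl enzyme, which is also known as a sensor of leucine, had the largest excess of them, with levels of 7.25 in MKN45P and 6.28 in MKN45. Its difference was 0.88 (0.55 to 1.36 over 38 probesets), just short of 2-fold, and 35 of 38 probesets were higher in MKN45P. EPRS, the bifunctional enzyme for glutamate and proline, had levels of 6.51 in MKN45P and 5.99 in MKN45 (difference 0.35, 0.13 to 0.71).

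RARS, the arginyl enzyme, had levels of 7.15 in MKN45P and 6.83 in MKN45 (0.32, 0.23 to 0.74), with 16 of 17 probesets higher. KARS, whose gene supplies the lysyl enzyme of both compartments, had levels of 6.60 in MKN45P and 6.18 in MKN45 (0.05, -0.14 to 0.24). IARS (-0.02), the isoleucyl enzyme, and MARS (-0.11), the methionyl enzyme, differed little, and their probesets took both signs. KARS with quantile normalization, IARS with median centring and 2 other summaries, and MARS with the mean over probesets had the opposite sign, so none of them has a settled direction. The scaffolds were also mixed: EEF1E1 was at 0.56, SCYE1 (now AIMP1) at 0.41 and JTV1 (now AIMP2) at -0.35. EEF1E1 levels were 2.43 in MKN45P and 1.85 in MKN45, close to the bottom of the range.

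The 12 cytosolic enzymes outside the complex had a median difference of 0.24, and 9 of them were positive. YARS, the tyrosyl enzyme, followed WARS, with levels of 9.70 in MKN45P and 8.56 in MKN45. Its difference was 0.71 (0.51 to 0.95 over 21 probesets), and 19 of the probesets were higher. As the difference of median levels it passed 2-fold, at 1.14. AARS, the alanyl enzyme, had levels of 10.01 in MKN45P and 9.51 in MKN45. Its difference was small, 0.43 (0.32 to 0.73), but 23 of 24 probesets were higher in MKN45P and none was lower.

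The glycyl enzyme GARS, which like KARS serves both compartments, had levels of 10.37 in MKN45P and 10.08 in MKN45 (0.34, 0.22 to 0.54). NARS, the asparaginyl enzyme, had levels of 7.62 in MKN45P and 7.46 in MKN45 (0.31, 0.16 to 0.68). In both genes nearly all probesets were higher in MKN45P, 19 of 21 and 18 of 19. The remaining values were 0.17 for the histidyl enzyme HARS, 0.09 for the seryl enzyme SARS, 0.07 for the cysteinyl enzyme CARS, which turned negative with quantile normalization, and -0.09 for the threonyl enzyme TARS.

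The phenylalanyl enzyme is built from 2 kinds of subunit, and their mRNAs differed unequally. FARSB, the beta subunit, had levels of 5.56 in MKN45P and 4.81 in MKN45, a difference of 0.54 (0.24 to 0.87), with 20 of 22 probesets higher. FARSA, the alpha subunit, had levels of 8.26 in MKN45P and 8.56 in MKN45, yet its median difference over probesets was -0.01 (-0.10 to 0.19), and its sign changed with the setting.

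VARS, the valyl enzyme, which in mammals binds the elongation factor complex EEF1, was the other cytosolic gene with a clear negative value. Its levels were 5.57 in MKN45P and 5.92 in MKN45, with a difference of -0.41 (-0.82 to -0.17), and 28 of 34 probesets were lower. Of all measured genes 6.60% had a lower difference.

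**Figure D3:**
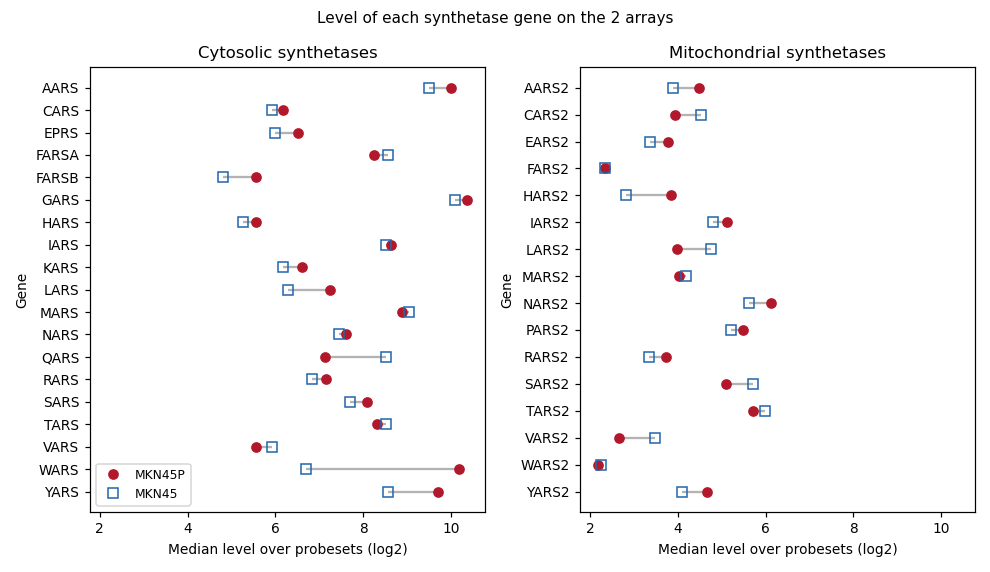
Median level over probesets (log2, horizontal) of each synthetase gene in MKN45P (filled circles) and MKN45 (open squares). The gap is widest for WARS, 10.18 in MKN45P against 6.70 in MKN45, and QARS shows the widest gap in the other direction, 7.12 in MKN45P against 8.51 in MKN45.

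Among the mitochondrial enzymes 8 genes were positive and 8 negative, and VARS2, LARS2 and CARS2 had the lowest differences. VARS2, the mitochondrial valyl enzyme, had levels of 2.65 in MKN45P and 3.47 in MKN45, with a difference of -0.85 (-1.60 to -0.27), and 35 of 38 probesets were lower. Of these, 20 lay at or above 2.77, and values below that are compressed. Over the 20, the VARS2 levels were 4.16 in MKN45P and 5.28 in MKN45 and the difference was -1.57, every one being lower in MKN45P. Of the 20 VARS2 probesets 2 reached that level through MKN45 alone, so their direction was fixed by the filter. Over such probesets 3.62% of 12854 genes were at least 2-fold lower. A further 15 probesets carry the symbols of VARS2 and of its neighbour GTF2H4 together and were left out.

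LARS2, the mitochondrial leucyl enzyme, had levels of 3.98 in MKN45P and 4.75 in MKN45 (difference -0.62, -0.84 to -0.16), with 21 of 24 probesets lower. CARS2, the cysteinyl enzyme, had levels of 3.92 in MKN45P and 4.54 in MKN45 (-0.61, -1.16 to -0.12), with 24 of 30 lower. Over probesets at or above 2.77 these differences were -0.72 for LARS2 and -0.89 for CARS2. TARS2 followed at -0.34, SARS2 at -0.32 (-0.66 over probesets with signal) and MARS2 at -0.30, lower at all 8 of its probesets. For SARS2, 4 probesets shared with FBXO17 were left out.

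Over all probesets the highest mitochondrial values were smaller in size than those of VARS2, LARS2 and CARS2. NARS2, the asparaginyl enzyme, had levels of 6.12 in MKN45P and 5.62 in MKN45 (difference 0.53, 0.12 to 0.74). HARS2, the histidyl enzyme, had levels of 3.85 in MKN45P and 2.82 in MKN45 (0.47, 0.03 to 1.00), and AARS2, the alanyl enzyme, had levels of 4.48 in MKN45P and 3.88 in MKN45 (0.29, -0.06 to 0.87). HARS2 just passed 2-fold as a difference of median levels, at 1.03. Over probesets at or above 2.77 the differences were 0.61 for NARS2, 0.86 for HARS2 and 0.28 for AARS2. On that measure HARS2 was larger in size than LARS2 and close to CARS2. Of such probesets 1 of 10 in HARS2 and 3 of 24 in AARS2 reached that level through MKN45P alone. IARS2 (0.03), PARS2 (0.02), FARS2 (0.01), RARS2 (0.01) and YARS2 (-0.07) took either sign under other settings. FARS2 and WARS2 (-0.16) had only 3 probesets each at or above 2.77, so larger differences in their RNA would not be seen.

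For 13 amino acids 1 cytosolic and 1 mitochondrial gene were both measured, and in 10 pairs the cytosolic gene had the more positive difference. The median gap was 0.31. After WARS and WARS2 (gap 3.10), the widest was that of the leucyl pair, LARS at 0.88 and LARS2 at -0.62, followed by the tyrosyl pair, YARS at 0.71 and YARS2 at -0.07. The valyl pair was negative on both sides, VARS at -0.41 and VARS2 at -0.85. The pairs in the other order were HARS with HARS2, NARS with NARS2 and IARS with IARS2. HARS and HARS2 encode closely related proteins, so RNA of the one may bind probes of the other and their values are uncertain. Their annotated genes lie 84 bases apart on chromosome 5, on opposite strands.

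**Figure D4:**
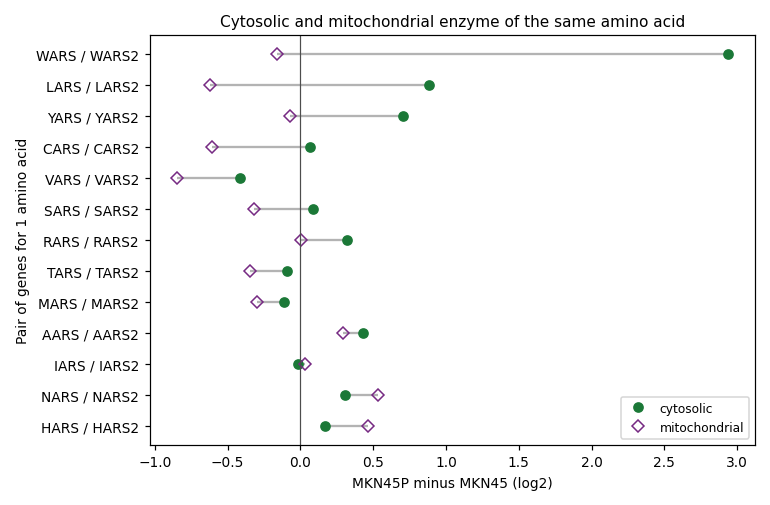
Difference between MKN45P and MKN45 (log2, horizontal) of the cytosolic gene (filled circles) and the mitochondrial gene (open diamonds) for each of 13 amino acids, ordered by the gap between them. The cytosolic gene lies to the right in 10 pairs, furthest for WARS and WARS2.

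Genes listed for ATF4 and the amino acid response, which in mammalian cells includes many synthetases, were higher in MKN45P by more than the synthetases. The list also holds ATF4 itself and the kinase genes EIF2AK3 (0.95) and EIF2AK4 (0.03). It was chosen with earlier results of these data known, so its share past 2-fold is a description only. Of 35 measured genes in that list, which holds no synthetase, 11 passed 2-fold upwards (31.4%, against 4.58% of all measured genes) and 0 downwards. The median was 0.66, and 33 of the 35 were positive. As differences of median levels the count of ATF4 genes was 19 and their median 1.04. On that measure 1263 of all 13130 measured genes were 2-fold higher, and the median of all was 0.07. The members past 2-fold included ALDH1L2, a mitochondrial folate enzyme, with levels of 5.69 in MKN45P and 2.38 in MKN45 (difference 2.94). Others were the stress protein NUPR1 (2.94), SESN2 (1.56), an inhibitor of mTORC1 signalling, CTH, which makes cysteine (1.49), VLDLR (1.40), DDIT3 (1.27) and PCK2 (1.24). The transcription factor ATF5 had levels of 5.65 in MKN45P and 3.59 in MKN45. Asparagine synthetase, ASNS, was at 0.66, and ATF4 itself at 0.02.

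The start regions of several synthetases hold the composite element bound by ATF4 and C/EBP proteins, searched as TGATGNAA on both strands. It was found in 7 of the 16 cytosolic genes with a promoter in the RefSeq table (43.8%), in 1 of 14 mitochondrial genes, YARS2, and in 4.46% of all 27305 genes with a promoter. In the ATF4 list it was found in 8 of 29 genes and in the interferon list in 3 of 10. The cytosolic matches are shown in windows of 30 bases of GRCh38.p14 along the gene's own strand, with the element or its reverse complement in capitals, because the letters and their place are so alike.
AARS, chr16:70289675-70289704: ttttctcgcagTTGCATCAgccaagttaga
CARS, chr11:3057407-3057436: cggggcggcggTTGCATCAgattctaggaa
GARS, chr7:30594834-30594863: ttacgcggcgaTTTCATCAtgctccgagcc
IARS, chr9:92293692-92293721: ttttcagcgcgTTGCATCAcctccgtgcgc
MARS, chr12:57488053-57488082: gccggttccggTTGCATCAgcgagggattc
NARS, chr18:57621804-57621833: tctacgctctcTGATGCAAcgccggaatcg
TARS, chr5:33440956-33440985: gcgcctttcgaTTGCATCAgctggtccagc

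Apart from AARS, whose match begins 187 bases before the start, the matches begin between 33 bases before the start in GARS and 14 after it in NARS, and none overlaps a match to the interferon motifs. The genes that hold the element were not set apart in these arrays. Their differences ran from -0.11 for MARS to 0.43 for AARS, with a median of 0.07, and the 9 cytosolic genes with a promoter and no match had a median of 0.17. MARS and DDIT3 lie close together on chromosome 12: MARS had levels of 8.89 in MKN45P and 9.05 in MKN45, whereas DDIT3 had 6.50 in MKN45P and 4.36 in MKN45. DDIT3 was picked out here after its values were seen.

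The steps before and after charging were looked at in the same way. Of 19 measured genes of tRNA processing, modification and export none passed 2-fold, and the median was 0.03. Over probesets with signal only, 2 of them were 2-fold higher, near the 10.6% of 12854 genes that were so on that measure. Their largest values were those of TSEN15, a subunit of the tRNA splicing endonuclease (0.70), and RPP30, a subunit of RNase P (0.45). Among 6 measured cytosolic elongation factors 1 was 2-fold higher (16.7%, against 4.58% of all measured genes). This was EEF1A2, a form of the factor that brings charged tRNA to the ribosome. It had levels of 7.18 in MKN45P and 4.17 in MKN45, a difference of 3.36 (1.47 to 3.91 over 13 probesets). The more widely expressed form EEF1A1 was at 0.12, with levels of only 2.88 in MKN45P and 2.50 in MKN45, and EEF2, the translocation factor, at -0.51. EEF1A1 and EEF1A2 are alike in sequence, which makes both values uncertain. EEF1B2, EEF1D and EIF5A had median levels of 2.50 or less in both lines, near the low end of the scale. Larger differences in their RNA would not be seen.

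Among 9 measured mitochondrial translation factors 8 were positive, against 54.9% of all measured genes, with a median of 0.26. MTIF3, an initiation factor (1.70, higher at 9 of 13 probesets), and ICT1, a peptide release factor of the mitochondrial ribosome (1.20), were 2-fold higher (22.2% of the list, against 4.58% of all measured genes). That count was 4 and the median 0.91 with the difference of median levels, where 1263 of all 13130 measured genes were 2-fold higher. With at least 10 probesets the count was 1, and 467 of 9668 genes were 2-fold higher. TUFM, which brings charged tRNA to that ribosome, was at -0.39. MTFMT, which formylates the methionyl tRNA made by MARS2, had levels of 5.01 in MKN45P and 6.18 in MKN45, a difference of -0.94 (-1.23 to -0.59), with 15 of 17 probesets lower.

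**Figure D5:**
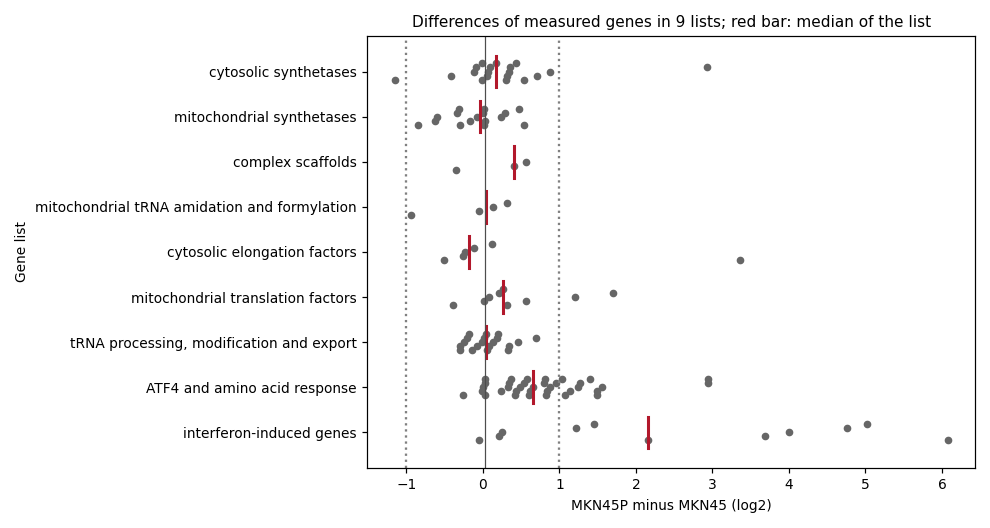
Difference between MKN45P and MKN45 (log2, horizontal) of each measured gene in 9 gene lists; red bars are list medians, the solid line the median of all measured genes and dotted lines 2-fold. The synthetase medians of 0.17 and -0.03 lie by the solid line at 0.03, the ATF4 list at 0.66 and the interferon list at 2.15 to its right.

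Few probesets departed from the rest of their synthetase gene. With a departure of at least 2 in log2 units and a level at or above 2.77 required, 4 of the 813 did, 1 each in WARS, NARS, RARS and CARS2. Probeset 3809685 of NARS had values of 6.70 in MKN45P and 3.44 in MKN45, a difference of 3.26, where the gene was at 0.31. Probeset 2839701 of RARS had values of 6.56 in MKN45P and 3.87 in MKN45 (2.69, against 0.32 for the gene). Probeset 3525566 of CARS2 had values of 3.64 in MKN45P and 6.26 in MKN45 (-2.62, against -0.61). Each was a lone probeset, which single values cannot tell from a faulty probe.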

How the data were processed

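One table of log2 values per probeset was deposited by the authors, with 1 column per line; the log2 scale was read from its range of 1.42 to 13.48. Partek and the build hg18 are named, per the submitters' processing notes; how background, probe summary and normalization were handled is not given in the sources used here. Ribosomal RNA was depleted and the cDNA amplified, per the labels' protocols. Medians were 1.91 in MKN45P and 1.93 in MKN45, and the values were used as deposited.

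Gene symbols are those of GEO's annotation of the platform and can be old. The 286871 probesets with exactly 1 symbol were used, and 3137 with several were left out. Current names, places and promoters came from RefSeq tables of GRCh38.p14; no hg18 position was used. A measured gene had a median of 15 probesets.

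The text names WARS, the synthetases past 2-fold and others for their role. It also names the 8 highest and 5 lowest cytosolic and the 4 highest and 4 lowest mitochondrial genes. From each other list, cell type markers apart, it names the members past 2-fold (at most 8) or the 2 largest. Of the cell type markers only some are named. The members and lists were chosen with earlier results of these data known. Alternatives were 3 scalings, 3 summaries and 3 filters. The steps were tested on simulated data. Python 3.11.15, numpy 2.4.6, pandas 2.3.3, statsmodels 0.14.6 and matplotlib 3.10.9 were used.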

Additional observations from a re-analysis of the deposited data

How the results depend on the processing

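Over 9 alternatives, the difference of WARS ran from 2.65 to 3.48 and that of QARS from -1.39 to -1.13, both past 2-fold throughout. Of the 35 synthetase genes 25 kept their sign under every alternative that gave a value, and the other 10 had differences between -0.11 and 0.07. With the difference of median levels, 2 cytosolic genes were 2-fold higher (YARS joined WARS) and 1 mitochondrial gene was (HARS2), and the medians were 0.31 over cytosolic and 0.13 over mitochondrial genes. The median over all genes was then 0.07, with 1263 genes 2-fold higher and 305 lower, against 602 and 157. With probesets at or above the 75th percentile only, 1 mitochondrial gene was 2-fold lower (VARS2), and 1361 genes in all were 2-fold higher and 465 lower. Without WARS, 0 cytosolic genes were 2-fold higher. The cytosolic median minus the mitochondrial median was 0.21 and ran from 0.16 to 0.24. No scaling moved the median of all genes by over 0.1. As settings added after seeing the data, the count of ATF4 genes 2-fold higher ran from 7 of 23, with at least 10 probesets, to 19 of 35, with the difference of median levels, against 11, and the median from 0.61 to 1.04. The interferon list's median ran from 1.34 to 4.005, against 2.15, and its count from 6 to 9, against 8. The 4.005 is over probesets with signal, a filter that favours it. The cytosolic elongation median was 1.43 over the 2 genes left by the stricter level filter, against -0.18. The causes of these changes were not tested. No paired analysis was possible because each line has 1 array. Values near the low end of the scale are compressed, which limits FARS2, WARS2 and VARS2 most.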

Other observations

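The synthetase genes are spread over the genome, and their differences were set beside those of their neighbours, a look chosen after the values were seen. For each of the 35 genes the nearest 10 measured genes on each side were taken, in GRCh38.p14 order. The neighbours' median difference ran from -0.11 around CARS to 0.33 around AARS. It was -0.09 around WARS (2.93), -0.08 around QARS (-1.15), 0.15 around LARS (0.88) and 0.09 around VARS2 (-0.85). Single neighbours differed more than these medians, from -0.76 to 1.68 around LARS, from -0.95 to 1.66 around VARS2, from -1.01 to 0.80 around QARS and from -0.97 to 0.51 around WARS. The sign was that of the neighbours in 20 of 35 genes. Across the 35 genes the correlation with the neighbours' median was -0.04 (Pearson r) and 0.11 (Spearman rho), as a description, since the genes share arrays and some share neighbours. HARS and HARS2 are each other's neighbours, as are EPRS and IARS2.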
